A study of Mus musculus with 12 samples.

Results

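The genes described here are 8 carbonic anhydrases and related proteins, Car1, Car2, Car3, Car4, Car5a, Car6, Car8 and Car11, taken as the probe sets that the array annotation gives to one of these symbols alone. Of the 8 genes, 7 had a probe set, and Car4 had 2, which makes 8 probe sets among the 12422 on the array that are not controls. Car11 was not analysed here. The genes were fixed by symbol, but earlier results of these data were known when they were chosen.

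RNA from tumors and from normal intestine of male Min/+ mice aged 91 days was hybridised to 12 Affymetrix MG_U74Av2 arrays. Min is a truncating mutation of the tumor suppressor Apc, and mice with 1 copy of it develop many intestinal adenomas. There were 6 tumor arrays, of Dnmt+/- Min/+ and Dnmt+/+ Min/+ mice on diets #1, #2 and #3, and 6 normal intestine arrays of the same genotypes and diets, with 1 array for each combination. Every mouse carried the Min allele, so no group was wild type for Apc. The labels do not say which Dnmt gene was altered, what the diets contained, which segment of intestine was sampled, or whether RNA was pooled. A code shared by 1 tumor and 1 normal array gives 6 pairs, but whether a code stands for an animal is not stated. The p-values therefore measure the spread between these arrays, which may be partly technical.

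Carbonic anhydrases are zinc enzymes that interconvert carbon dioxide and bicarbonate, and in the gut they supply the bicarbonate and protons that epithelial cells exchange for chloride and sodium. Car1, Car2 and Car3 are cytosolic, Car4 is anchored to the outer face of the membrane, Car5a is mitochondrial, and Car6 is secreted, mainly by salivary glands. Car8 and Car11 have the fold of the family but lack the catalytic activity. Car1 is known as an enzyme of colon surface epithelium and red cells, and Car3 as one of adipocytes and skeletal muscle.

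The arrays of diet #1 were deposited on another scale than the others. Their values were not scaled, and 40.8% to 45.9% of the probe sets on each stood at a floor of 50, whereas the 8 other arrays were scaled to a common mean with no floor. Diet #1 and this format cannot be told apart, so deposited intensities are set side by side within a diet, and normalised ones across diets. For the tests the intensities were quantile normalised, raised to a floor at the 20th percentile (44.8) and put on the log2 scale, on which a difference of 1 is a doubling. Differences below are log2 tumor minus normal with the SE from limma, a linear model fitted over 6400 features with tissue, diet and genotype as terms. P-values were adjusted by Benjamini-Hochberg over all features and called at 0.05. Of the markers of adenoma among Wnt target genes, 5 of 6 tested rose in tumors, among them Mmp7, a matrix protease, by 4.72-fold. The summed level of those 6 genes ran between 7603 and 14090 in tumors and between 2510 and 4484 in normal intestine, so every tumor array lay above every normal array. Mmp7 made up 4813 of the 7603 and 10500 of the 14090, so these sums mostly follow that 1 gene.

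Of the 5 members past the filter on dim probe sets, Car4 and Car8 rose in tumors, Car3 fell, and Car1 and Car2 did not pass the test. Over all features 35.2% were called for tissue, 18.2% higher in tumors and 16.9% lower, so calls in either direction were common on these arrays. The median log2 difference over all features was 0.00. The split between directions depended on the scaling. Of the called features 51.8% were higher in tumors after quantile normalisation, against 35.3% after median scaling and 65.1% on the values as deposited, where the median of all features moved to -0.10 and 0.13. Against these medians Car4 stood at 1.11 and 1.34, Car8 at 0.42 and 0.65 and Car3 at -1.49 and -1.39, so no called member changed direction. Car5a and Car6 were left out by the filter on dim probe sets. Car3 and Car8 were close to it, with means at percentiles 44 and 43.7 of all probe sets. Each passed with the help of the tissue where it was high. Car3 averaged 5.93 in tumors and 7.88 in normal intestine, and Car8 7.34 and 6.44. Fitted with no filter, both were called (limma, adjusted p = 0.00278 for Car3 and 0.01 for Car8).

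**Figure D1:**
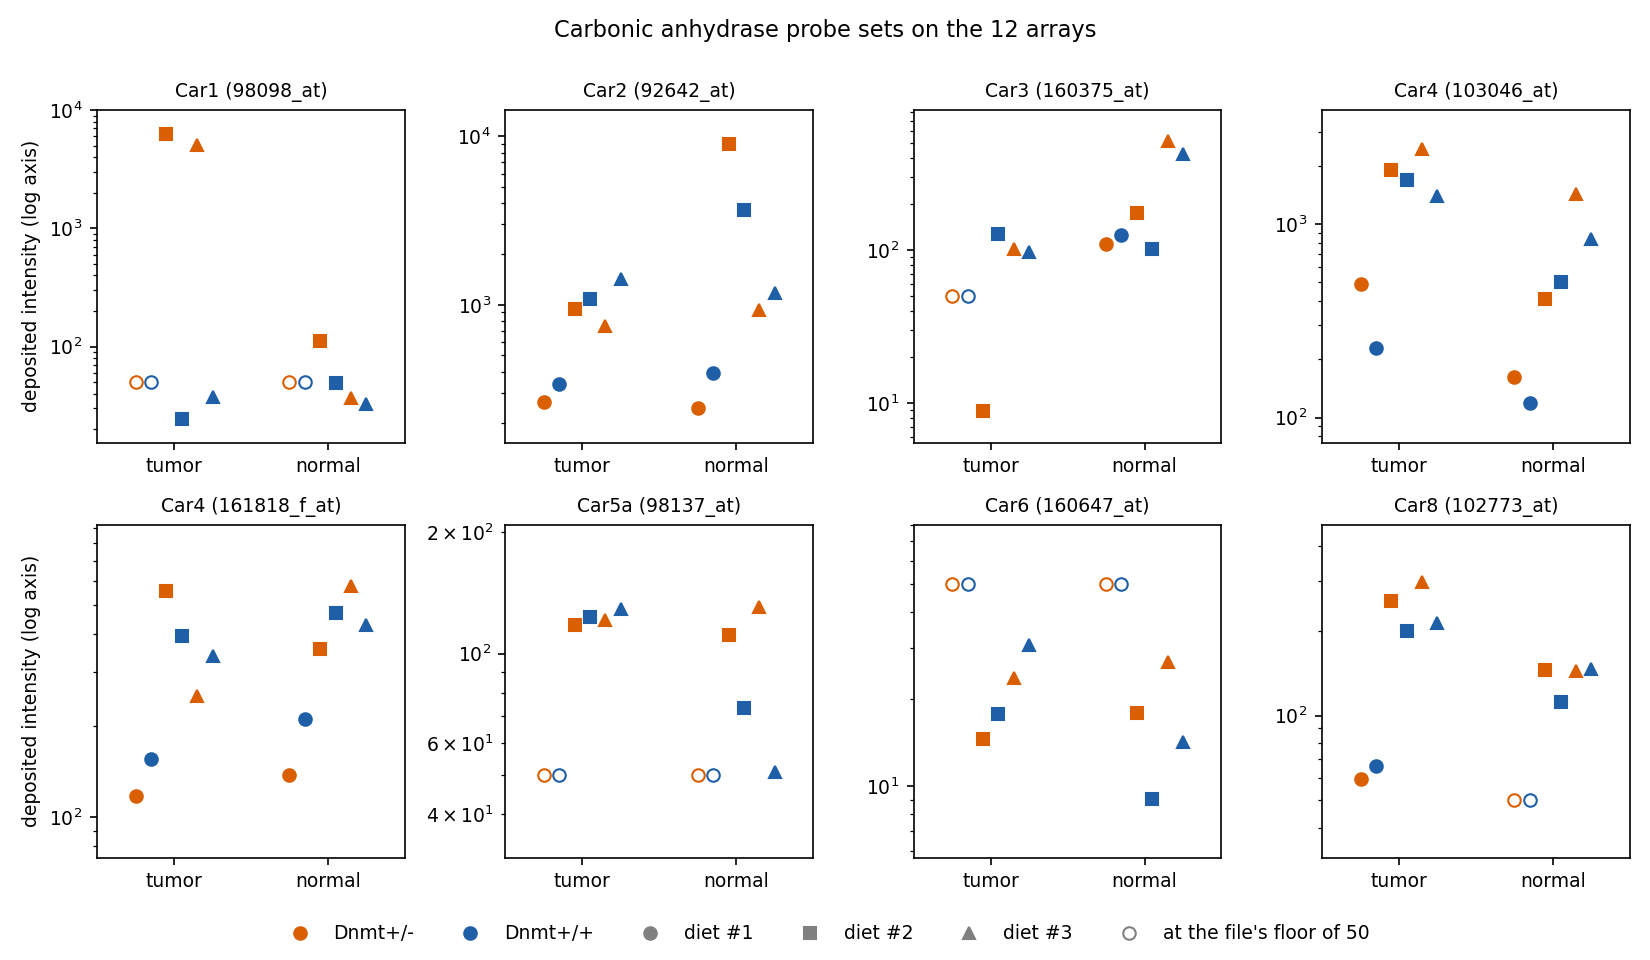
Deposited intensity (log axis) of the 8 probe sets on the 12 arrays, tumor left of normal, with colour for Dnmt genotype, marker shape for diet and open circles for arrays at the floor of 50 in the file. Car1 reads 6304 and 5023 on 2 Dnmt+/- tumor arrays and at most 112.3 on the others, Car2 is highest on the 2 normal arrays of diet #2, and Car6 does not exceed 50 on any array.

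Car4, the membrane-anchored enzyme that faces the gut lumen, was higher in tumors in every pair. In Dnmt+/- mice on diets #1, #2 and #3 its deposited intensity was 492, 1908 and 2434 in tumors, against 163, 410.0 and 1421 in normal intestine. In Dnmt+/+ mice on the same diets it was 230, 1692 and 1387 in tumors, against 119, 503 and 833 in normal intestine. In all 6 pairs of equal genotype, diet and code the tumor exceeded the normal array, while across arrays the groups overlapped, since the normal arrays of diet #3 were as high as some tumors. On the log2 scale Car4 averaged 10.14 ± 0.73 in tumors and 8.92 ± 0.78 in normal intestine (SD, n = 6 each). The difference was 1.22 ± 0.25, or 2.32-fold (limma, adjusted p = 0.00481), and the pairs ran between 0.64 and 2.04.

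The other Car4 probe set did not show this rise. It read 117, 556 and 250.8 in Dnmt+/- tumors, against 138, 358 and 576 in Dnmt+/- normal intestine, on diets #1, #2 and #3. In Dnmt+/+ mice it read 156, 395 and 339 in tumors, against 210.1, 469 and 430.5 in normal intestine. It was lower in tumors in 5 of 6 pairs, the exception being the Dnmt+/- pair of diet #2, with a log2 difference of -0.51 ± 0.19 that did not pass the threshold (limma over every probe set past the filter, adjusted p = 0.0707). The probe sets of Car4 thus differed in sign, and which transcripts each detects was not tested. The brighter one stood for the gene by the rule applied to all genes. In bulk tissue fewer cells of a type and less RNA per cell cannot be told apart, for Car4 or any gene described here.

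Car12, a membrane-spanning carbonic anhydrase outside the 8 members, also rose. Its deposited intensity was 50, 457 and 336 in Dnmt+/- tumors and 79, 381 and 338 in Dnmt+/+ tumors on diets #1, #2 and #3, against 50, 133 and 73.1 in Dnmt+/- normal intestine and 50, 156 and 113 in Dnmt+/+ normal intestine. On diets #2 and #3 all tumors lay above all normal arrays, and on diet #1 3 of the 4 arrays stood at the file's floor. The log2 difference was 1.23 ± 0.25, or 2.35-fold (limma, adjusted p = 0.00453). On diet #1 the normalised log2 levels were 7.32 in the Dnmt+/+ tumor and 5.48 in its normal array, for deposited values of 79 and 50. In the Dnmt+/- pair, both at the file's floor, they were 5.57 and 5.61. The fold thus depends in part on that floor. Car14, another membrane enzyme of the family, was left out by the filter on dim probe sets.

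The promoter windows of both membrane enzymes that rose are given here because they are the 2 risers of the family with a window in the sequence table. Each holds 250 bases before and 50 after the RefSeq start site, from RefSeq on GRCm38.p6, on the plus strand at chr11:84957504-84957803 for Car4 and chr9:66713436-66713735 for Car12. Of the 8 members, 4 had a window. Both strands were searched for the TATA box spelled TATAAA, for the GC box spelled GGGCGG, and for a TCF/LEF core, the element bound by the nuclear effectors of Wnt signalling, spelled CTTTGA. Capitals mark the matches.
Car4: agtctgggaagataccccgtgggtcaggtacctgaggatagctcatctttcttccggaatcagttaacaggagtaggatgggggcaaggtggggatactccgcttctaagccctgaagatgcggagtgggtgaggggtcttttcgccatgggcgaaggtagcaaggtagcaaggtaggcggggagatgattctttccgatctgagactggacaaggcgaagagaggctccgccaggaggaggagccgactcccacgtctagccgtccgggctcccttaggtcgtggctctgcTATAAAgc
Car12: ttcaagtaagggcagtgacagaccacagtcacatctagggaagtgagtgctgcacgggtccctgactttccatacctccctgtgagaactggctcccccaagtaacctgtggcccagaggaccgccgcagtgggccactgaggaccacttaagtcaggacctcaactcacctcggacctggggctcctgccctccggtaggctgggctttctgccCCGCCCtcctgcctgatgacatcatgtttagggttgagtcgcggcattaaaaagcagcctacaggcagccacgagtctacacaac
Car4 held TATAAA on the plus strand at base 293 of the window, 43 bases after the start site. Car12 held GGGCGG on the minus strand at base 216, at position -35. Neither window held CTTTGA, and no matches overlapped. Over all 32851 windows of 300 bases, 13.6% held the spelling of the TATA box, 35.7% that of the GC box and 16% that of the TCF/LEF core. These counts take a match at any position on either strand. Windows with a match are thus not rare, and no match says only that the letters are not in this window. The Car4 match lies after the start site, and whether it acts as a TATA box was not tested.

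Car8, a member without catalytic activity that is known to bind the inositol trisphosphate receptor, was higher in tumors in every pair. On diets #1, #2 and #3 its deposited intensity was 59.3, 256 and 299 in Dnmt+/- tumors, against 50, 145 and 144 in Dnmt+/- normal intestine. It was 66, 201 and 213 in Dnmt+/+ tumors, against 50, 112.2 and 146 in Dnmt+/+ normal intestine. Within each diet all tumors lay above all normal arrays, and after normalisation the groups did not overlap over all 12 arrays. The share of all features that separate in this way was not computed. The log2 level averaged 7.34 ± 0.25 in tumors and 6.44 ± 0.70 in normal intestine (SD, n = 6 each), a difference of 0.90 ± 0.19 or 1.87-fold (limma, adjusted p = 0.00564).

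The size of the Car8 difference depended on diet #1, where both normal arrays stood at the file's floor. There the pairs differed by 1.66 and 1.61 on the normalised log2 scale while the deposited ratios were 1.19 in Dnmt+/- and 1.32 in Dnmt+/+ mice. On diets #2 and #3 the log2 differences of the pairs ran between 0.37 and 0.85. Without the diet #1 arrays the difference was 0.54 (adjusted p = 0.0143), with a floor at the 40th percentile 0.53 (adjusted p = 0.00127) and with median scaling in place of quantile normalisation 0.42 (adjusted p = 0.00803). The rise was called in each.

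Car3, the cytosolic enzyme known from fat and muscle, fell in tumors. On diets #1, #2 and #3 its deposited intensity was 50, 8.84 and 102 in Dnmt+/- tumors, against 109, 174 and 515 in Dnmt+/- normal intestine. It was 50, 128 and 97.2 in Dnmt+/+ tumors, against 125, 101 and 421 in Dnmt+/+ normal intestine. The normal arrays of diet #3 were the highest, and the Dnmt+/+ pair of diet #2 was the 1 pair in which the deposited value was higher in the tumor, by a ratio of 1.27. After normalisation all 6 pairs were lower in tumors, that pair by 0.03 on the log2 scale, and the groups did not overlap, at 5.48 to 6.55 in tumors and 6.58 to 8.79 in normal intestine. As for Car8, the share of all features without such overlap was not computed.

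The log2 difference of Car3 was -1.95 ± 0.31, or 3.87-fold lower in tumors (limma, adjusted p = 0.00128). Because 3 of the 6 tumor arrays stood at a floor, the fold depends on where the floor lies, and with a floor at the 40th percentile the difference was -1.24 (adjusted p = 0.00274). Most marker genes of adipocytes moved with it. Of 8 tested adipocyte markers 6 fell, with a median log2 difference of -0.92, among them Cidec, a lipid droplet protein, by 2.84-fold (adjusted p = 0.00379) and Lipe, the hormone-sensitive lipase, by 2.49-fold (adjusted p = 0.00405). The brightest of the 8 on average, Lep, the leptin gene, was not called, with a log2 difference of -0.23 (limma, adjusted p = 0.159). Their summed normalised level was 1396 to 1713 in tumors and 2256 to 2991 in normal intestine, with no overlap.

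The skeletal muscle list as a whole did not go with Car3. Acta1, the skeletal muscle actin, had a normalised level of 2167 and 2100 in the 2 normal arrays of diet #3, where Car3 was highest, against 43.1 to 224 in tumors and 44.8 to 206 in the other normal arrays. Acta1 made up most of the sum of 6 muscle markers on those 2 arrays, which was 3361 and 3076. Without Acta1 the sum over the other 5 was 1194 and 976 there, within the range of the tumors, 1019 to 2217, or below it. The brightest muscle marker, Pvalb, the calcium buffer parvalbumin, was 569 and 690 on those 2 arrays, against 575 to 1772 in tumors. It made up 1772 of the 2217 in the Dnmt+/- tumor of diet #2, so the upper end of that range was mostly 1 gene. Of 11 listed muscle markers 6 passed the filter on dim probe sets, and of these 0 passed the tissue test. The 2 arrays with the highest Car3 also had the highest adipocyte marker sums, and the part of fat or muscle in the Car3 difference was not tested. Without the diet #2 arrays Car3 differed by -2.24 (adjusted p = 0.000275) and without the diet #1 arrays by -1.85 (adjusted p = 0.0159).

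Car2, the fast cytosolic enzyme of many secretory epithelia, was lower in tumors on diet #2 and near equal on the others. On diets #1, #2 and #3 its deposited intensity was 266, 946 and 753 in Dnmt+/- tumors, against 243, 8985 and 930.4 in Dnmt+/- normal intestine. It was 339, 1089 and 1418 in Dnmt+/+ tumors, against 393, 3646 and 1174 in Dnmt+/+ normal intestine. Both normal arrays of diet #2 stood far above all others, and without them tumor and normal values were intermixed.

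The tissue difference of Car2 was -0.94 ± 0.44 (95% interval -1.92 to 0.05) and was not called (limma, adjusted p = 0.129). In the pairs of diet #2 it was -3.26 in Dnmt+/- and -1.92 in Dnmt+/+ mice, while the 4 pairs of diets #1 and #3 ran between -0.43 and 0.21. Without the diet #2 arrays the difference was -0.11 (adjusted p = 0.679). A test of whether the tissue difference varied with diet was not called for Car2 (limma F test, adjusted p = 0.163), and 1.3% of all features were.

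Exocrine pancreas markers were high on the same arrays. The summed normalised level of 10 markers was 223000 in the Dnmt+/- and 244200 in the Dnmt+/+ normal array of diet #2, against 5575 to 14120 in tumors and 8526 to 28410 in the other normal arrays. Cel, the bile salt lipase of pancreatic juice, had a normalised level of 31690 and 33260 in those 2 normal arrays, against 228 to 425 in tumors and 247 to 319 in the other normal arrays. Of the 10 markers 1 was called for tissue. Car2 and Slc4a4, a sodium bicarbonate cotransporter, are both known from pancreatic ducts, and the normalised level of Slc4a4 was 2066 and 1375 in the 2 normal arrays of diet #2. On the 10 other arrays it was 281 to 589. The part of pancreatic tissue in the Car2 values was not tested.

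**Figure D2:**
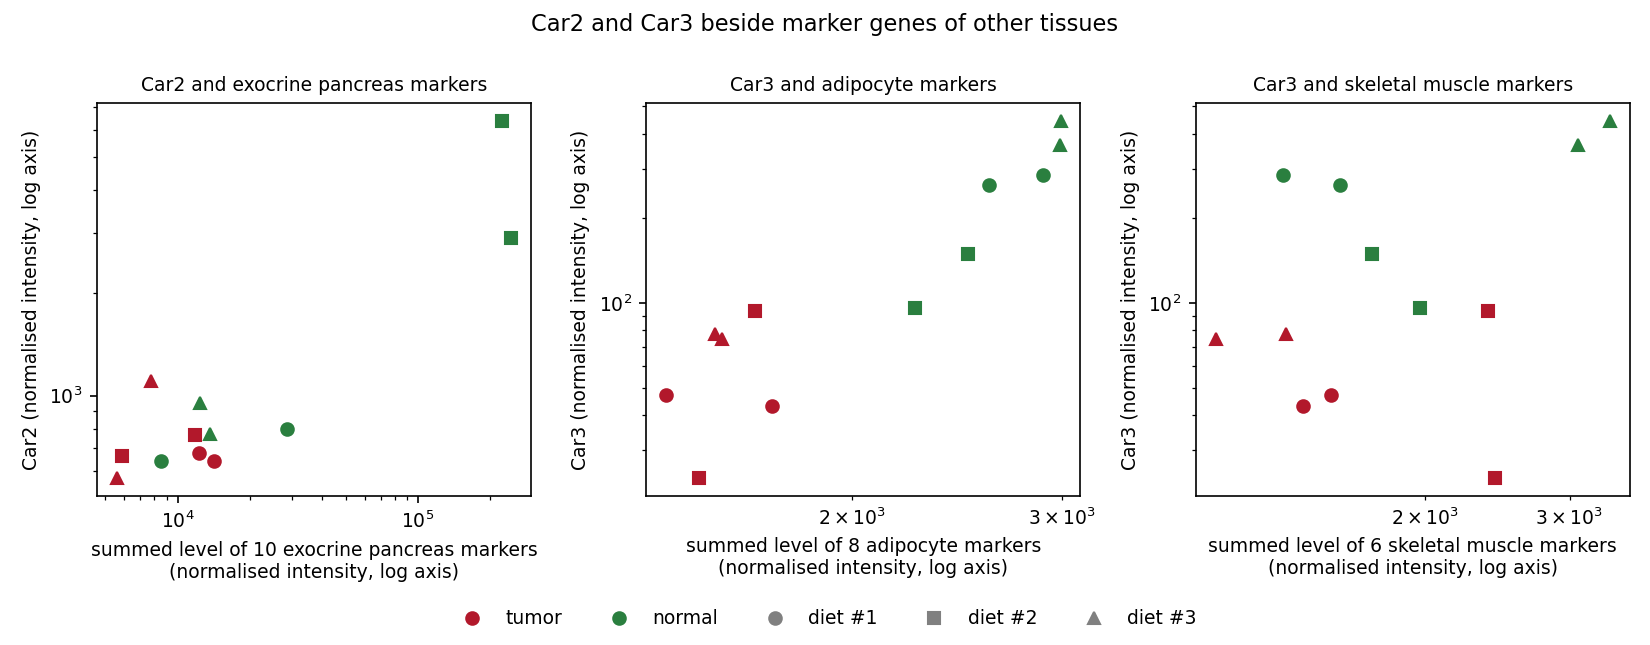
Normalised intensity of Car2 against the summed level of 10 exocrine pancreas markers, and of Car3 against that of 8 adipocyte and of 6 skeletal muscle markers (log axes), with tumors in red, normal intestine in green and marker shape for diet. The 2 normal arrays of diet #2 stand alone at the upper right for Car2, and for Car3 the tumors lie at adipocyte sums of 1396 to 1713, left of all normal arrays. The 2 high muscle sums are those of the normal arrays of diet #3, carried by Acta1.

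Car1, the cytosolic enzyme of colon surface cells and red cells, was high on 2 arrays only. It read 50, 6304 and 5023 in Dnmt+/- tumors, against 50, 24.5 and 37.6 in Dnmt+/+ tumors, on diets #1, #2 and #3. In normal intestine it read 50, 112.3 and 36.6 in Dnmt+/- mice, against 50, 49.2 and 32.9 in Dnmt+/+ mice. The Dnmt+/- tumors of diets #2 and #3 stood far above the other 10 arrays, and all 4 arrays of diet #1, the Dnmt+/- tumor included, stood at the file's floor.

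In those 2 tumors the log2 level of Car1 was 12.31 and 11.98, which is 6.83 and 6.50 above the Dnmt+/+ tumors of the same diets and 5.68 and 6.50 above the normal arrays of the same genotype and diet. The differences that involve an array at the floor, all but the 5.68, are lower bounds. The tissue difference of 1.97 ± 1.10 (95% interval -0.50 to 4.44) was not called (limma, adjusted p = 0.198), nor was that of Dnmt+/- minus Dnmt+/+, 2.40 ± 1.10 (adjusted p = 0.917).

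Whether the tissue difference of Car1 depended on genotype was tested as an interaction. It came to 4.15 ± 1.83 on the log2 scale (95% interval -0.04 to 8.33) and was not called (limma, adjusted p = 1). By this test 0% of all features were called, and 179 of the 6400 had an unadjusted p under 0.05. Car1 passed the filter on dim probe sets only through the 2 high tumors, and without either of them it gave no value. Without the Dnmt+/- tumor of diet #1, the 1 Dnmt+/- tumor without high Car1, the interaction was 6.35 and past the threshold, and without all diet #1 arrays it was 6.70 and was not called (adjusted p = 0.0969). These values are given as a description, since the array left out was the one that differed from the other Dnmt+/- tumors.

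Of 9 tested colon markers, 4 had a higher normalised level in both of these Dnmt+/- tumors than in the Dnmt+/+ tumor of the same diet. These were Aqp4, Aqp8, Emp1 and Hoxb13. The other 5, Ces1d, Lypd8, Mep1a, Muc3 and Slc20a1, were not higher in both. For 2 of the 9, Aqp4 and Hoxb13, both tumors exceeded all other arrays. On diet #2, Mep1a, a brush border protease, was 556 in the Dnmt+/- tumor, against 739 in the Dnmt+/+ tumor. On diet #3 it was 719 against 683. Ces1d, a carboxylesterase, was 61.8 and 27.5 in the Dnmt+/- tumors of diets #2 and #3, against 31.65 and 74.03 in the Dnmt+/+ tumors. Its highest level on the other arrays was 730. Hoxb13, a homeobox gene of the distal colon and prostate, read 58.5, 466 and 456.5 in Dnmt+/- tumors, against 85.2, 153 and 81.2 in Dnmt+/+ tumors, on diets #1, #2 and #3. Its normalised level was 319 and 338 in the 2 tumors with high Car1, against 66.8 to 170.2 in the other tumors and 102 to 267.5 in normal intestine. Hoxb13 was taken as the gene most like Car1 over these arrays, so its being high where Car1 is high follows from that choice. Aqp4, a water channel, read 53.4, 489 and 568 in Dnmt+/- tumors, against 74.6, 169 and 276 in Dnmt+/+ tumors. Its normalised level was 335 and 424 in the 2 tumors with high Car1, against 118 to 325 in normal intestine, and it was named after its values were seen.

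Saa2, an acute-phase serum amyloid gene also made by colon epithelium, read 50, 1651 and 1143 in Dnmt+/- tumors, against 50, 353 and 184 in Dnmt+/+ tumors. It too was taken for its likeness to Car1, and it is not among the colon markers. None of Hoxb13, Aqp4 or the water channel Aqp8 was called for the interaction (limma, adjusted p = 1 for each). For tissue, 2 of the 9 colon markers rose and 2 fell, with a median log2 difference of 0.07, and their summed normalised level was 19710 to 25850 in tumors and 15270 to 22320 in normal intestine. The segment from which each tumor came is not in the labels.

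**Figure D3:**
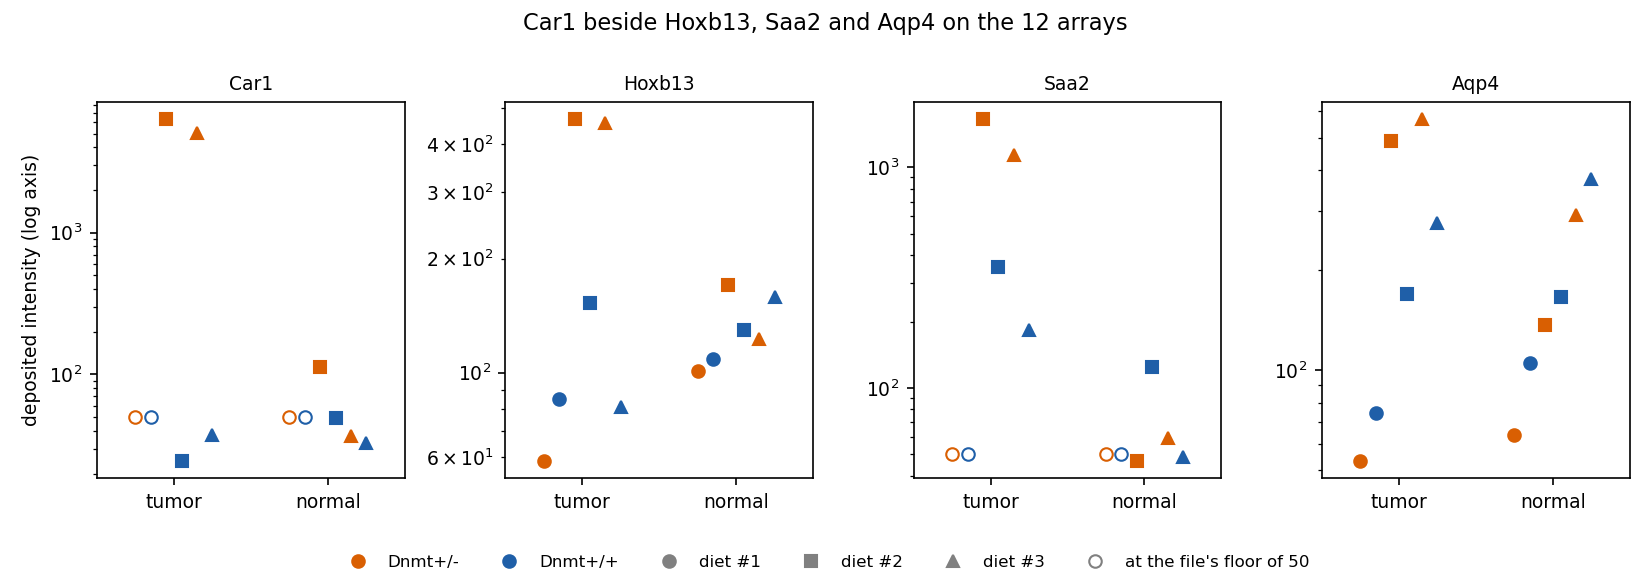
Deposited intensity (log axis) of Car1, Hoxb13, Saa2 and Aqp4 on the 12 arrays, tumor left of normal, with colour for genotype, marker shape for diet and open circles for arrays at the floor of 50 in the file. The Dnmt+/- tumors of diets #2 and #3 (orange square and triangle) are the 2 highest arrays in each panel. Hoxb13 and Saa2 were chosen for their likeness to Car1, and Aqp4 after its values were seen.

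Red cell markers were not highest where Car1 was. The summed normalised level of 3 markers (Hba-a1, Hbb-b2 and Klf1) was 2978 and 2419 in the 2 tumors with high Car1. It was 3916 to 5732 in the 3 Dnmt+/+ tumors and 2164 and 2208 in the Dnmt+/- normal arrays of the same diets. In the Dnmt+/- tumor of diet #1 it was 4024, of which Klf1 made up 1872. Within each diet the sum was lower in Dnmt+/- than in Dnmt+/+ arrays in both tissues. Hbb-b2, a beta-globin gene, had a difference of Dnmt+/- minus Dnmt+/+ of -1.04 on the log2 scale that was not called (limma, adjusted p = 0.0798). The part of red cells in the Car1 values was not tested.

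Car5a, the mitochondrial enzyme, was dim. On diets #2 and #3 it read 118 and 121 in Dnmt+/- tumors and 123 and 129 in Dnmt+/+ tumors, against 111 and 130.4 in Dnmt+/- normal intestine and 73.2 and 51.1 in Dnmt+/+ normal intestine. All 4 diet #1 arrays stood at the floor of 50, and the Dnmt+/+ normal arrays were the lowest of the 8 others. Fitted without the filter, its log2 difference was 0.11 ± 0.15 (limma, adjusted p = 0.716). Car6, the secreted enzyme, read 9.08 to 30.9 on the 8 arrays of diets #2 and #3 and 50 on the 4 of diet #1, so it was at a floor on all 12 arrays and only a bound on its level is known.

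**Figure D4:**
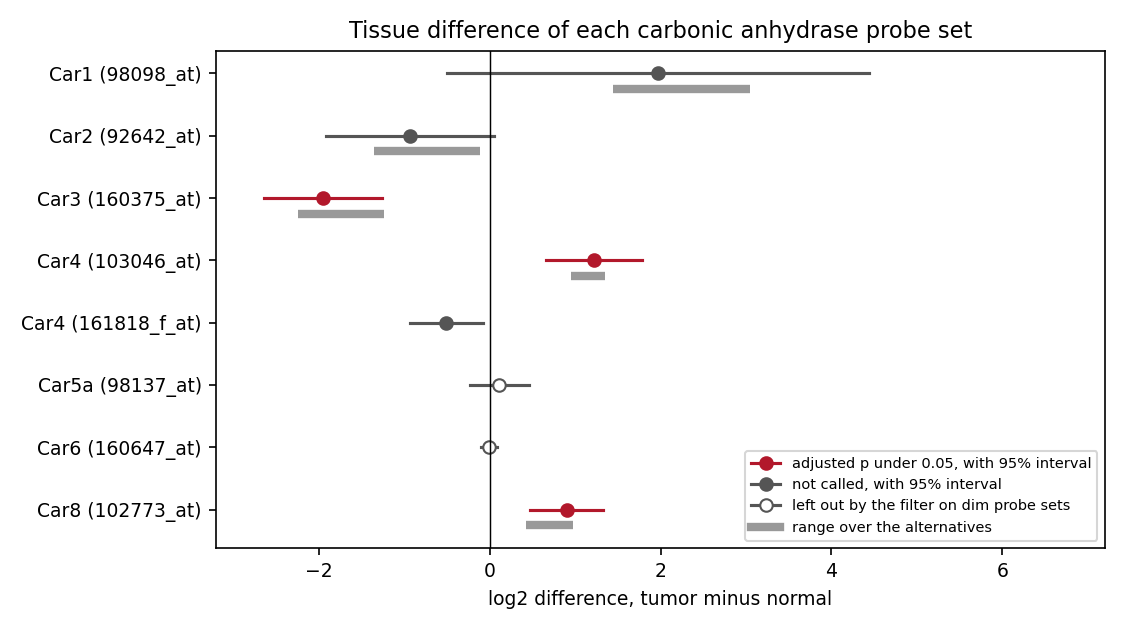
Log2 difference of each probe set, tumor minus normal, with its 95% interval from limma (12 arrays), in red where the adjusted p was under 0.05, with open points for probe sets left out by the filter and grey bars for the range over the alternative settings. The brighter Car4 probe set and Car8 lie right of 0 and Car3 left of it with their whole grey range, while the interval of Car1 runs from -0.50 to 4.44.

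By Dnmt genotype alone, none of the 5 tested members was called, and 0.0156% of all features were (1 feature). Car4 was higher in Dnmt+/- than in Dnmt+/+ arrays in 5 of 6 comparisons within a tissue and diet, with a log2 difference of 0.63 ± 0.25 (limma, adjusted p = 0.917). The other Car4 probe set was lower in Dnmt+/- arrays in 4 of 6 comparisons, with a difference of -0.06 ± 0.19 (limma over every probe set past the filter, adjusted p = 0.986). Car8 differed by 0.21 ± 0.19 (95% interval -0.22 to 0.64), Car2 by -0.09 ± 0.44 (-1.08 to 0.89) and Car3 by 0.00 ± 0.31 (-0.69 to 0.69). Intervals of this width do not show that the genotypes were alike. The interaction of tissue and genotype was not called for Car2, Car3, Car4 or Car8 either (adjusted p = 1 for each).

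Between diets #3 and #2, which share a file format, none of the 5 members was called, and 4.28% of all features were. Car3 had the highest log2 difference, diet #3 minus diet #2, at 0.99 ± 0.38 (limma, adjusted p = 0.166), with normal levels of 8.65 ± 0.20 on diet #3 and 6.90 ± 0.45 on diet #2 (SD, n = 2 each). Without the Dnmt+/+ tumor of diet #2 it was 1.42 (adjusted p = 0.0385), so that 1 array decided the call. Car2 had a difference of -1.09 ± 0.54 (adjusted p = 0.282), carried by the 2 normal arrays with high pancreas markers, and Car4 one of 0.66 ± 0.31 (adjusted p = 0.253). Car1 and Car8 differed by -0.45 ± 1.35 and 0.18 ± 0.23. The tissue difference of Car8 varied with diet by an amount that was not called (limma F test, adjusted p = 0.0759).

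The genes most like each tested member over the 12 arrays, after each diet's mean was removed, are given as a description. Car1 was most like Hoxb13 (r = 0.892), Saa2 (0.872) and Ethe1 (0.86). Car2 was most like Aplp2 (0.947), Sash1 (0.945) and Slc4a4 (0.934), and Car4 was most like Spin1 (0.958), Uri1 (0.951) and Rps24 (0.949). Car3 was most like Prkg2 (0.979), Prkce (0.975) and B2m (0.972), and Car8 was most like Bysl (0.98), Sytl4 (0.977) and Cma1 (0.973), a mast cell chymase. These arrays share the tissue contrast, and the dim genes among them share the floor of diet #1.

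Within the members, Car3 and Car8 ran against each other (r = -0.891), as did Car2 and Car4 (r = -0.734). Car4 and Car8 ran with each other (r = 0.702). Mast cell markers moved with tissue as Cma1 did, with 5 of 5 tested rising and a summed level of 8058 to 28860 in tumors, against 504 to 933 in normal intestine. Car1, Car3 and Car2 are neighbours on chromosome 3 in RefSeq, in the order Car13, Car1, Car3, Car2 with pseudogenes and a noncoding RNA between some of them. On these arrays the 3 had different patterns, with the highest values of Car1 in Dnmt+/- tumors, of Car3 in normal intestine of diet #3 and of Car2 in normal intestine of diet #2.

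Other genes of ion and bicarbonate transport were taken from 4 more lists, whose counts stand against the 35.2% of all features called for tissue. Guanylin peptides act through a receptor that makes cyclic GMP, which raises chloride and bicarbonate secretion. In a list of this route and other regulators of secretion 4 of 5 tested genes fell and 0 rose, with a median log2 difference of -0.95. Prkg2, the cyclic GMP-dependent kinase of the brush border, fell by 4.54-fold (limma, adjusted p = 0.000468), the peptide Guca2b, uroguanylin, by 2.22-fold (adjusted p = 0.0102) and its receptor Gucy2c by 1.93-fold (adjusted p = 0.00291). Prkg2 stood at the file's floor in both diet #1 tumors, so its fold is set by that floor in part. The fall of Guca2b was not seen alike on all diets. On diet #2 its normalised level was 5122 in the Dnmt+/- and 6060 in the Dnmt+/+ tumor, against 5009 and 7296 in normal intestine. On diet #3 it was 3466 and 4385, against 15190 and 13420. The fourth that fell was Sgk1, a kinase that controls sodium transport outside the cyclic GMP route, by 1.54-fold (adjusted p = 0.0086). Vipr1, a receptor for vasoactive intestinal peptide and also outside that route, had a log2 difference of -0.44 (adjusted p = 0.0575).

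The other transport lists were mixed. Of 9 tested anion exchangers, cotransporters and channels 2 rose and 1 fell, with a median of 0.18 (log2), a share of calls near that of all features. Slc12a2, the basolateral sodium-potassium-chloride cotransporter, rose 1.47-fold (limma, adjusted p = 0.0036) and Clca1, a secreted goblet cell protein, rose 1.37-fold (adjusted p = 0.0497), while Slc12a7, a potassium-chloride cotransporter, fell by 1.73-fold (adjusted p = 0.00172). Of 11 tested genes of proton, sodium and potassium transport 3 rose and 2 fell, with a median of -0.08. Kcnn4, a calcium-activated potassium channel, rose 2.39-fold (adjusted p = 0.000103).

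Kcnn4 read 301, 1032 and 1056 in Dnmt+/- tumors on diets #1, #2 and #3, against 128, 421 and 428 in Dnmt+/- normal intestine. In Dnmt+/+ mice it read 457, 1329 and 1237 in tumors, against 224, 305 and 437 in normal intestine, so each of the 6 tumors lay above the normal array of its genotype and diet. The sodium pump beta subunits moved in opposite directions, with Atp1b3 1.69-fold higher (adjusted p = 0.000325) and Atp1b1 2.25-fold lower in tumors (adjusted p = 0.000577). Kcnq1, a potassium channel subunit, rose 1.24-fold (adjusted p = 0.0381) and Slc9a3r1, a scaffold of the brush border sodium-proton exchanger, fell by 1.32-fold (adjusted p = 0.0257). Of 6 tested water channels and monocarboxylate transporters with their partners 0 passed the test.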

How the data were processed

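Per the labels, RNA was purified with Trizol and hybridised to Affymetrix MG_U74Av2 arrays. The authors deposited 1 linear intensity per probe set for 12488 probe sets on each of 12 arrays. For the summarising software, nothing is given in the sources used here. Depth is not defined for arrays, and their number limits the precision.

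From the deposited intensities, 66 control probe sets were removed, the rest quantile normalised, floored at the 20th percentile and put on the log2 scale. A filter then dropped the 40% of probe sets with the lowest means, and each gene kept its brightest probe set. Limma 3.58.1 in R 4.3.3 fitted tissue, diet and genotype, without a block, and interactions in separate fits, with Benjamini-Hochberg adjustment and a threshold of 0.05. The fit was tested on simulated data. Symbols came from the platform annotation, matched to RefSeq of GRCm38.p6.

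Members and lists were chosen with earlier results of these data known. Named were all members, the transport genes with the 3 largest called rises and falls per list, at most the 3 brightest markers per list, and the 3 genes most like each member. Aqp4, Aqp8, Car14, Ces1d, Lypd8, Mep1a, Sgk1 and Vipr1 were named outside this rule after their values were seen. Within the sample codes taken from the titles, deviations from tissue means correlated at 0.463 to 0.677, but after diet and genotype at -0.574 to -0.38. Each code is a single combination of diet and genotype, so removing these terms lowers the correlation by design. The values therefore cannot show whether a code stands for an animal. Codes were used as a block only as an alternative. No 2 arrays were identical (highest correlation 0.982). Scaling, floor, filter, variance model, block and arrays left out were varied.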

Additional observations from a re-analysis of the deposited data

Results flagged for a closer look

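In normal intestine, the Car1 log2 level of the Dnmt+/- array of diet #2 was 6.63 (deposited intensity 112.3), while the other 5 normal arrays lay between 5.48 and 5.79. The gap to the nearest array was 0.731 of the group's range, above the critical value that Dixon's test sets for 6 arrays. Of the other 5 arrays, 4 stood at a floor, which narrows their spread. Car1 of the tumor with the same code was the highest of all 12 arrays. For values without a floor chance marks about 1 in 20 groups in this way, and 12 groups were examined. With arrays at a floor, as here, this rate does not hold.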

How the results depend on the processing

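The tissue calls of Car3 (22 alternatives), Car4 (23) and Car8 (22) kept their direction and were called in every alternative that gave a value, with differences between -2.24 and -1.24, 0.96 and 1.35, and 0.42 and 0.97. Car1 (19) and Car2 (23) were called in none. With the lowest 60% left out, 1 member was called, since Car1, Car3 and Car8 did not pass that filter. Without the diet #2 arrays 1365 features were called for tissue. With the sample code as a replicate block, tissue adjusted p-values were 0.205 for Car1, 0.167 for Car2, 0.00537 for Car3, 0.00465 for Car4 and 0.0168 for Car8, and the block changed no call of a member, while features called were 3 for genotype and 594 between diets. Alternatives without diet #2, and without the diet #1 arrays for the tissue by genotype fit, were chosen after seeing the data, as was leaving arrays out of that fit.

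Features called for genotype numbered 3 with median scaling, a floor at the 40th percentile, the lowest 60% left out or trended robust variances, 2 as deposited, 0 with no filter, without diet #1 or without diet #2, and 0 to 2 with 1 array left out. Between diets #3 and #2 they numbered 90 as deposited, 433 with the lowest 60% left out and 21 to 225 with 1 array left out, when 0 to 1 members were called. Tissue by diet gave 146 with no filter and 31 with the lowest 60% left out, and tissue by genotype 0 to 1 with 1 array left out. The Car3 genotype difference turned to -0.068 as deposited, -0.13 with a floor at the 5th percentile and -0.17 without diet #1, and ran from -0.24 to 0.30 with 1 array left out. With 1 array left out, signs also turned for Car2 by genotype (-0.50 to 0.16), Car1 between diets (-1.22 to 0.34), and tissue by genotype of Car8 (-0.0345 to 0.54) and Car2 (-1.14 to 0.34). None of these was called, and the cause was not tested. Signal near the floor limits Car1, Car3, Car5a, Car6 and Car8.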
